A study of Mus musculus with 10 samples.

Results

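The genes described here mark the cells that build the blood vessels of the brain. They comprised 26 endothelial genes and 9 mural genes, the latter divided into 6 pericyte and 3 smooth muscle genes. The members were picked by symbol and matched by Ensembl gene ID. The rule used no measured value, but earlier results of these data were known when the members were chosen. All 35 were found among the 29883 genes of the count table. RNA had been sequenced from the nucleus accumbens (NAc), a ventral striatal region, of mice of the strains C57BL/6J (B6) and DBA/2J (D2). Both are wild-type inbred strains, and the mice were males of 9 weeks that had never received ethanol or another agent. Each strain had 5 mice with 1 poly-A library per mouse, and a strain was compared with the mouse as the replicate. The study chose these strains for their unlike ethanol behaviours, and the comparison asks here which vessel genes differed between them before any ethanol.

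Endothelial cells line the vessel, and in the brain they form the blood-brain barrier: tight junctions seal the space between them, and transporters carry nutrients in and drugs out. Pericytes sit within the basement membrane along capillaries, and smooth muscle cells wrap arterioles and set their width. Platelet-derived growth factor from the endothelium recruits pericytes through the receptor Pdgfrb, and Notch, VEGF, angiopoietin and Wnt signals shape both layers.

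The libraries held between 96977262 and 116776714 counted reads, and levels below are read counts scaled to a common library size (normalized read counts). Striatal neuron markers were abundant in every mouse, with sums from 330283 to 516811. The cortex neuron markers were uneven. Their sum was 100740.4 in B6 replicate 3 and 102076 in B6 replicate 5, but between 8147 and 17421 in the other 3 B6 mice and between 23209 and 62756 in D2. Differences of the called members are therefore also given without both. B6 replicates 3 and 5 were also the most alike of all pairs within a strain. The mean chi-square per gene between their libraries was 4.89, against 17.5 to 119 for the other pairs within a strain. They were still counted as separate mice, and whether they are as independent as the others was not tested. In bulk tissue, fewer cells of a type and less RNA per cell cannot be told apart.

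All 35 genes were expressed in every mouse, and none had a mean below 204.8 raw counts. Per kilobase of exon, which allows levels of different genes to be compared, the endothelial genes spanned a wide range. Slc2a1, the glucose transporter GLUT1, had a level of 1846 ± 109 in B6 and 1769 ± 219 in D2. Ly6e, a lipid-anchored surface protein, was at 1732 ± 357 in B6 and 1564 ± 83.0 in D2, and the tight junction claudin Cldn5 was at 1865 ± 392 in B6 and 1387 ± 263 in D2. In B6 the differences among these most abundant genes were within the spread between mice, and in D2 Cldn5 lay below Slc2a1 by more than the SD of either. The fourth most abundant gene and the first among mural genes was Vtn, which encodes the adhesive protein vitronectin, at 1692 ± 83.4 in B6 and 1422 ± 136 in D2. At the other end were Emcn (endomucin) at 83.4 ± 13.3 in B6 and 72.3 ± 2.62 in D2, Ocln (occludin) at 80.8 ± 5.75 in B6 and 75.3 ± 6.26 in D2 and the pericyte gene Higd1b at 69.7 ± 5.69 in B6 and 57.8 ± 2.06 in D2. The defining endothelial markers Pecam1 and Cdh5 and the defining mural markers Pdgfrb, Acta2 and Notch3 were thus all present in the dissected tissue.

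**Figure D1:**
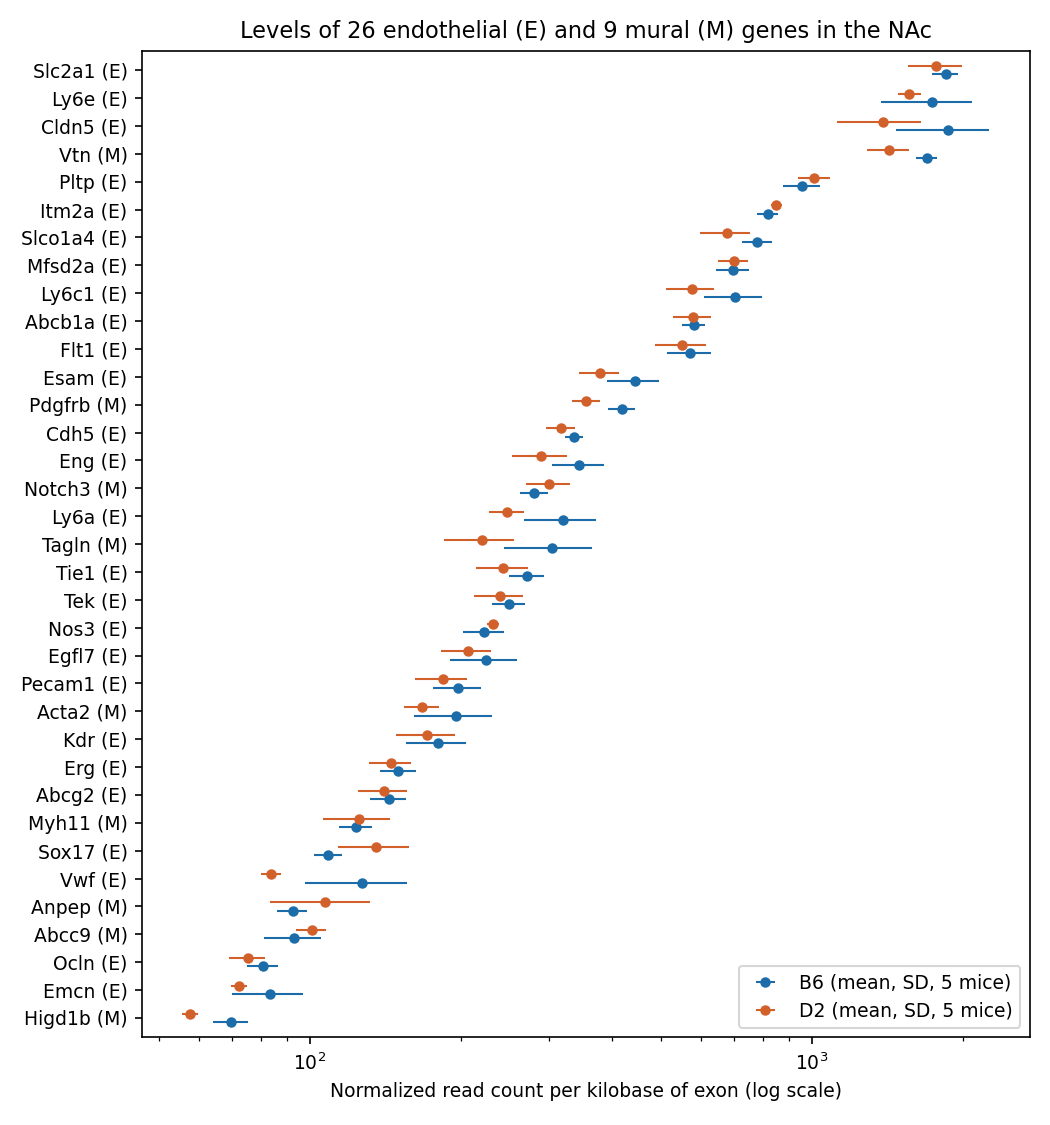
Normalized read count per kilobase of exon (log scale) of the 35 genes, marked E for endothelial and M for mural, with B6 and D2 shown as separate points. Slc2a1, Ly6e, Cldn5 and Vtn stand at the top of the range and Higd1b at its foot.

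Between strains, 6 of the 35 genes were lower in D2 and 0 were higher at an edgeR adjusted p under 0.05. The genes lower in D2 were the endothelial Vwf and Ly6a and the mural Pdgfrb, Vtn, Tagln and Higd1b. Of all 29883 genes, 18.3% were called in either direction, 9.83% (2937 genes) lower and 8.50% (2541 genes) higher in D2. The members were thus called about as often as genes at large. Among the 10791 genes within the members' range of mean counts, 24.3% were called. Of the 26 endothelial genes 2 (7.69%) were called, and of the 9 mural genes 4 (44.4%), a contrast that was not tested. The log2 fold changes had a median of -0.09 over the endothelial genes and -0.22 over the mural genes, beside 0.0036 over all genes. The mural median was the value of 1 uncalled gene, Acta2. As means over genes, the log2 deviations from the 10 mice were 0.059 in B6 and -0.059 in D2 for the endothelial genes. For the mural genes they were 0.056 and -0.056, so by the mean both classes differed by similar amounts. The mural median was -0.11 without B6 replicate 4. The endothelial median was -0.04 without D2 replicate 5, -0.02 without B6 replicates 3 and 5 and 0.0093 with the level of fibroblast and meningeal markers as a covariate. In all, 26 of the 35 log2 fold changes were below 0, and 24 were with total counts as the scaling. DESeq2 called these 6 genes and also Cldn5 and Ly6c1 as lower and Sox17 as higher in D2, against 20.8% of all genes. The exact permutation p was under 0.05 in 11 of the 35 members and in 28.0% of all genes.

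**Figure D2:**
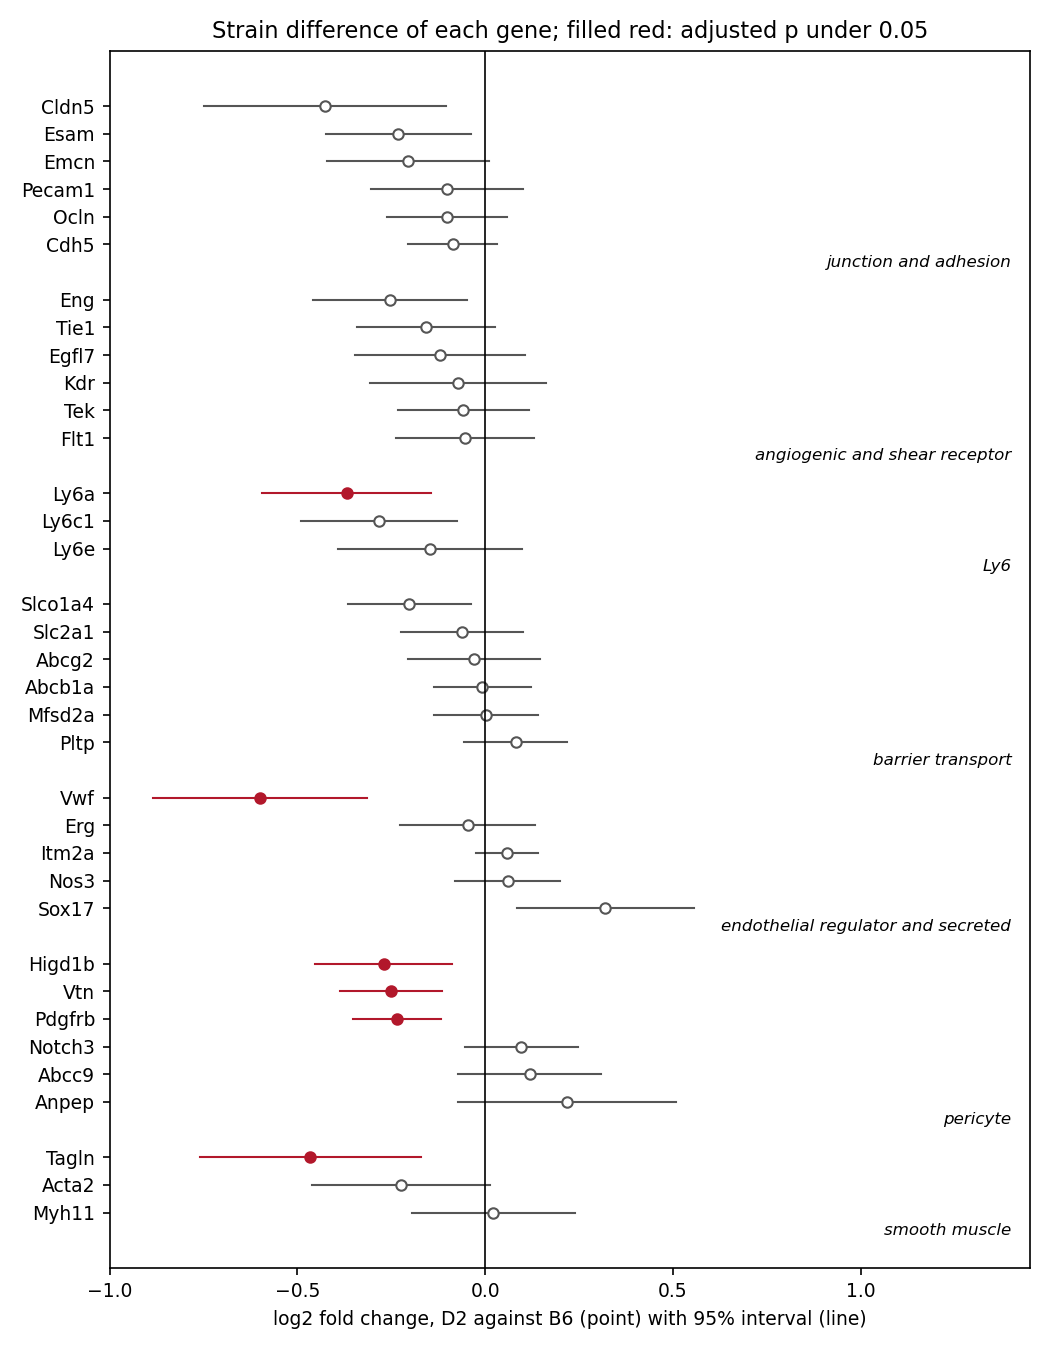
log2 fold change of D2 against B6 (points) with 95% interval (lines) for each gene, grouped by role, with filled red points for an adjusted p under 0.05. The red points are Ly6a, Vwf, Higd1b, Vtn, Pdgfrb and Tagln, all below 0, while Sox17 is farthest above 0.

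Vwf showed the largest difference of the 35. It encodes von Willebrand factor, a clotting glycoprotein that endothelial cells store and release. Its normalized counts were 1597, 2445, 2461, 1591 and 2527 in B6 replicates 1 to 5 and 1410.1, 1491, 1428, 1339.5 and 1333 in D2 replicates 1 to 5. Every B6 mouse was above every D2 mouse, but B6 replicates 1 and 4 stood only just above the D2 mice and replicates 2, 3 and 5 far above them. The means were 2124 ± 485 in B6 and 1400.3 ± 65.7 in D2 (SD, n = 5 per strain), so that D2 stood at 0.659 of B6 (log2 fold change -0.60, SE 0.13, edgeR adjusted p = 0.0058). The exact permutation p was 0.0079, the smallest that 5 against 5 mice allow. Without B6 replicates 3 and 5 the difference was smaller and still passed (log2 fold change -0.42, edgeR adjusted p = 0.025). With the fibroblast and meningeal markers as a covariate it did not (edgeR adjusted p = 0.069). Vwf (ENSMUSG00000001930) spans chr6:125523737-125663642, + strand, in GRCm39.

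The other regulators and secreted factors of the endothelium did not pass the test. Sox17, a transcription factor of arterial endothelium, had counts of 559.6, 535, 579, 634 and 590.5 in B6 and 805, 737, 797, 758 and 519 in D2. The first 4 D2 mice lay above all B6 mice, whereas D2 replicate 5 lay below them. The difference was the largest in the direction of D2 among the members (log2 fold change 0.32, SE 0.11, edgeR adjusted p = 0.060, 95% interval 0.085 to 0.56), and without D2 replicate 5 it passed (log2 fold change 0.42, edgeR adjusted p = 0.0012). Itm2a, a membrane protein and the most abundant gene of this class per kilobase, was at 4845 ± 238 in B6 and 5043 ± 131 in D2 (SD, n = 5 per strain, log2 fold change 0.058, SE 0.038, edgeR adjusted p = 0.36). Nos3, the endothelial nitric oxide synthase, and Erg, an ETS-family transcription factor, had log2 fold changes of 0.060 and -0.046.

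Ly6a, Ly6c1 and Ly6e belong to a cluster of lipid-anchored surface proteins on chromosome 15, and Ly6a is also known as the stem cell antigen Sca-1. Ly6a was lower in D2. Its counts were 1171, 1751, 1582, 1292 and 1615 in B6 and 1246, 1202, 1188, 1038 and 1065 in D2. B6 replicate 1 lay within the D2 range and the other 4 B6 mice above it. The means were 1482 ± 241 in B6 and 1148 ± 91.1 in D2 (SD, n = 5 per strain, log2 fold change -0.37, SE 0.10, edgeR adjusted p = 0.025, exact permutation p = 0.032). The call was kept in 5 of 10 fits that each left out 1 mouse. It was lost without B6 replicate 2, 3 or 5 (edgeR adjusted p = 0.062, 0.051 and 0.053) and without D2 replicate 4 or 5 (0.066 and 0.064). It was also lost without B6 replicates 3 and 5 together (log2 fold change -0.29, edgeR adjusted p = 0.099). Ly6c1 was at 2317 ± 306 in B6 and 1904 ± 207 in D2 (SD, n = 5 per strain, log2 fold change -0.28, SE 0.10, edgeR adjusted p = 0.058). Ly6e, the most abundant of the group, was at 7885 ± 1625 in B6 and 7122 ± 378 in D2 (SD, n = 5 per strain, log2 fold change -0.15, SE 0.11, edgeR adjusted p = 0.45). Of the read-length stretches of Ly6a, 3.43% also occur in Gm28068, and 4.15% of those of Ly6c1 occur in Ly6c2. Gm28068 had a mean of 2.98 normalized counts and Ly6c2 one of 3.03, far below the members.

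The promoters of the Ly6 genes and of Flt1 hold the letters of a motif that ETS factors can bind, a family to which Erg belongs. AGGAAGT was searched on both strands from 250 bases before to 50 bases after the start of the Ensembl canonical transcript. It occurred in 5 of 35 member promoters, all endothelial (Eng, Flt1, Ly6a, Ly6c1 and Ly6e), and in 8.61% of 17331 protein-coding promoters. A match before that start is shown for Ly6a, the called member of the group, for its neighbour Ly6e and for Flt1, on the strand of each gene, with the motif or its reverse complement in capitals.
Ly6a: gAGGAAGTaaggactggtgtgaggagggag
Ly6e: ggtgtggaagcACTTCCTgagcggtaggaa
Flt1: ggtgccggggtAGGAAGTgggctggggaaa
These are chr15:74869704-74869733 on the − strand (motif at -249 from the start), chr15:74826663-74826692 on the + strand (-186) and chr5:147662856-147662885 on the − strand (-53), read from the GRCm39 reference. Other transcripts of Ly6a begin farther upstream, so its window lies within the span of the gene, and Ly6e holds another match at -7. Of these genes only Ly6a was called, and a match describes the letters, not a bound site.

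None of the 6 junction and adhesion genes was called, and all 6 had log2 fold changes below 0. Cldn5 had counts of 2038, 2604, 3192, 2155 and 3215 in B6 and 1652, 1852, 2599, 1959.9 and 1756 in D2. The strains overlapped, with B6 replicates 3 and 5 highest and D2 replicate 1 lowest. Its difference was the largest of this class and missed the threshold (log2 fold change -0.43, SE 0.15, edgeR adjusted p = 0.067, 95% interval -0.75 to -0.10). Without B6 replicates 3 and 5, the mice with high cortex markers, the values were log2 fold change -0.21, edgeR adjusted p = 0.32. The remaining genes were Esam (-0.23) and Pecam1 (-0.10), which encode adhesion molecules of cell contacts, Emcn (-0.21), Ocln (-0.10) and Cdh5 (-0.087), which encodes VE-cadherin.

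The receptors of vessel growth were likewise all uncalled and all below 0, under each scaling tried. The sign was not kept in every other setting. Flt1 reached a log2 fold change of 0.014 with 1 mouse left out, and Flt1 and Kdr each reached 0.13 among the other alternatives. Flt1, the VEGF receptor 1 and the most abundant of them per kilobase, was at 7817 ± 776 in B6 and 7527 ± 868 in D2 (SD, n = 5 per strain, log2 fold change -0.055, SE 0.085, edgeR adjusted p = 0.74, 95% interval -0.24 to 0.13). The VEGF receptor 2 gene Kdr had a log2 fold change of -0.072, and Eng, a co-receptor for TGF-beta, one of -0.25 (edgeR adjusted p = 0.088). Tek, which encodes the angiopoietin receptor Tie2, and its partner Tie1 were at -0.058 and -0.16. The secreted factor Egfl7, listed with the receptors, was at -0.12.

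None of the 6 barrier transport genes passed the test. Slc2a1 was at 8659.8 ± 512 in B6 and 8299.8 ± 1027 in D2 (SD, n = 5 per strain, log2 fold change -0.061, SE 0.075, edgeR adjusted p = 0.66, 95% interval -0.22 to 0.10). For the drug efflux pump gene Abcb1a (P-glycoprotein) the log2 fold change was -0.0072 with a 95% interval of -0.14 to 0.12, and for Mfsd2a, a transporter of lysophospholipids, it was 0.0033 with an interval of -0.14 to 0.14. The efflux pump gene Abcg2 and the phospholipid transfer protein gene Pltp had values of -0.030 and 0.082. Slco1a4, a transporter of organic anions, was the exception by order. Its counts were 6319, 6321, 7012, 6265 and 7221 in B6 and 6158, 6057, 6177, 5808 and 4614 in D2. Every B6 mouse was above every D2 mouse, by a narrow gap except for D2 replicate 5, which was far below. The difference did not pass (log2 fold change -0.20, SE 0.076, edgeR adjusted p = 0.090), although the exact permutation p was 0.0079. B6 above D2 without overlap was seen in 4 of 35 members (Vwf, Slco1a4, Pdgfrb and Higd1b) and in 8.63% of all genes, and D2 above B6 in 0 members and 7.39% of all genes. Of the read-length stretches of Abcb1a, 4.36% also occur in Abcb1b, which had a mean of 301 normalized counts, far below Abcb1a.

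Among the mural genes, Pdgfrb, the platelet-derived growth factor receptor of pericytes, was lower in D2. Its counts were 3159, 3424, 3635, 3192 and 3529 in B6 and 2727, 3026, 3114, 2798 and 2727 in D2. The lowest B6 mouse was above the highest D2 mouse, by a small margin. The means were 3388 ± 208 in B6 and 2878 ± 180.1 in D2 (SD, n = 5 per strain), with D2 at 0.850 of B6 (log2 fold change -0.24, SE 0.054, edgeR adjusted p = 0.0078, exact permutation p = 0.0079). Vtn, which pericytes of the brain express strongly, differed by a similar amount. Its counts were 5052, 5434, 5441, 5147 and 5716 in B6 and 4565, 4499.9, 5061, 3849 and 4541 in D2. D2 replicate 3 just entered the B6 range, and D2 replicate 4 was lowest. The means were 5358 ± 264 in B6 and 4503 ± 431 in D2 (SD, n = 5 per strain, log2 fold change -0.25, SE 0.062, edgeR adjusted p = 0.013, exact permutation p = 0.016). The calls of Pdgfrb and Vtn were kept in all 10 fits that left out 1 mouse, as was that of Vwf. With the fibroblast and meningeal markers as a covariate, both were lost (edgeR adjusted p = 0.084 and 0.058).

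Higd1b, a hypoxia-inducible domain family gene used as a pericyte marker, was the least abundant member. Its counts were 223, 224, 230.4, 198 and 249 in B6 and 182, 194, 192, 179 and 186 in D2. The strains did not overlap, and B6 replicate 4 was closest to the D2 mice. The means were 225 ± 18.4 in B6 and 186 ± 6.64 in D2 (SD, n = 5 per strain, log2 fold change -0.27, SE 0.084, edgeR adjusted p = 0.042, exact permutation p = 0.0079). The call was near the threshold and was kept in 1 of the 10 fits with a mouse removed, namely without B6 replicate 4. In the other 9 the edgeR adjusted p lay between 0.057 (without D2 replicate 2) and 0.097 (without B6 replicate 5). Of its exonic bases, 23.8% overlap Eftud2 on the opposite strand, a gene at 11281 ± 213 in B6 and 10640.4 ± 247 in D2 (SD, n = 5 per strain).

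The other 3 pericyte genes had higher means in D2 and were not called. Notch3, a receptor that mural cells need to mature, had counts of 2703, 2664, 2357, 2509 and 2375 in B6 and 2997, 2628, 2673, 2886 and 2293 in D2. The strains overlapped widely (log2 fold change 0.10, SE 0.069, edgeR adjusted p = 0.41, 95% interval -0.055 to 0.25). Abcc9, a subunit of a potassium channel gated by ATP, had a log2 fold change of 0.12, and Anpep, the aminopeptidase CD13, one of 0.22. Anpep was highest in D2 replicate 5. The 6 pericyte genes thus did not share a direction, with 3 called lower in D2 and the means of the other 3 higher there.

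Tagln, the actin-binding protein transgelin (SM22), was the smooth muscle gene that was lower in D2. Its counts were 539, 574, 560.5, 838 and 594 in B6 and 561, 396, 479.9, 413 and 398 in D2. B6 replicate 4 was far above the rest, and D2 replicate 1 lay among the other B6 mice. The means were 621 ± 123 in B6 and 449 ± 71.4 in D2 (SD, n = 5 per strain, log2 fold change -0.47, SE 0.14, edgeR adjusted p = 0.030, exact permutation p = 0.024). Without B6 replicate 4 the difference was smaller and no longer passed (log2 fold change -0.33, edgeR adjusted p = 0.055), and without D2 replicate 2, 4 or 5 the edgeR adjusted p was 0.075, 0.075 and 0.076. With the RNA integrity number (RIN) as a covariate it was 0.052.

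Acta2, the smooth muscle actin, had counts of 625, 558, 551, 823 and 599 in B6 and 573, 549.9, 549.8, 566 and 465 in D2. It too was highest in B6 replicate 4, and the strains overlapped (log2 fold change -0.22, SE 0.11, edgeR adjusted p = 0.20). Myh11, the smooth muscle myosin, had counts of 924, 882, 919, 1061 and 908 in B6 and 1093, 939, 983, 1035 and 716 in D2. Its means were close (log2 fold change 0.022, SE 0.10, edgeR adjusted p = 0.92, 95% interval -0.20 to 0.24), so the 3 contractile genes did not share a called difference.

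The CArG box is the motif through which serum response factor drives smooth muscle genes. Over the same promoter window it was present in 1.41% of promoters and in 1 of 35 members, Tagln, which was also the called smooth muscle gene. The window is shown on the strand of the gene with the box in capitals.
Tagln: agggtcctgcCCATAAAAGGtttttcccgg
It is chr9:45847449-45847478 on the − strand of GRCm39, with the box at -64 from the start. No match within this window in Acta2 or Myh11 says only that the letters are not there. Of the exonic bases of Tagln, 60.7% overlap the non-coding gene Gm48529 on the opposite strand, which had 219 ± 21.5 counts in B6 and 222 ± 13.9 in D2 (SD, n = 5 per strain, edgeR adjusted p = 0.92). Whether reads were assigned by strand is not stated, so reads from overlapping genes cannot be told apart. Uncalled members have such overlaps too, among them Nos3 (26.7% of exonic bases, with Gm15587) and Pltp (21.2%, with Ctsa). Notch3, the reference of the mural ratios below, overlaps Gm17276 in 8.92% of its exonic bases. Gm17276 was itself lower in D2 (log2 fold change -0.27, SE 0.066, edgeR adjusted p = 0.012). Vwf, Pdgfrb and Vtn overlap no exon of another gene.

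**Figure D3:**
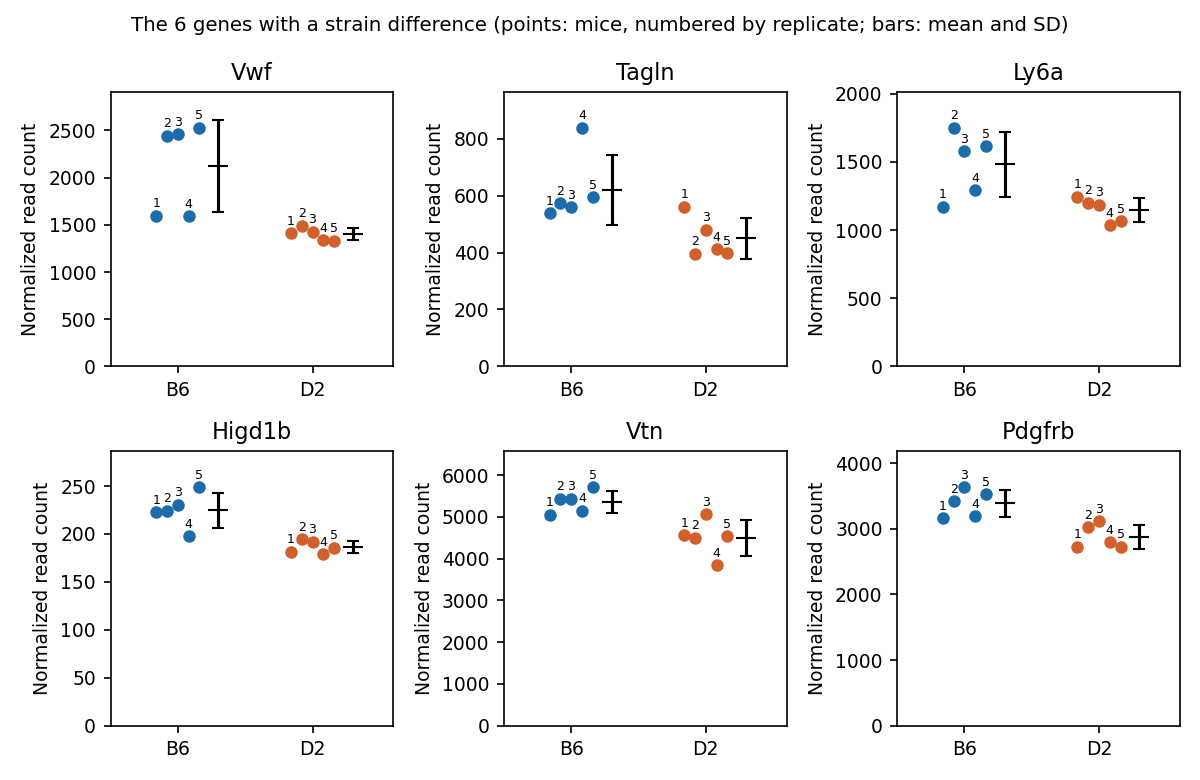
Normalized read counts of the 6 genes lower in D2, with a point for each mouse and the mean and SD of each strain. Vwf is split among the B6 mice, Tagln has 1 high B6 mouse, and Pdgfrb, Higd1b and Vwf show no overlap of strains.

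Summed over genes and per kilobase, the mural level was 3107 to 3375 in B6 and 2633 to 3101 in D2. The strains did not overlap, but B6 replicate 1 and D2 replicate 3 were almost equal. The endothelial sum was 12470.03 to 15419.9 in B6 and 11389 to 13538 in D2, and overlapped. The ratio of the endothelial to the mural sum had a mean of 4.29 (SD 0.311) over the 5 B6 mice and 4.49 (SD 0.246) over the 5 D2 mice, with overlapping ranges. Abundant genes set these sums, Vtn above all for the mural one.

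Ratios within a mouse do not depend on library scaling. Relative to Cdh5, taken as a reference gene after its values were seen, Vwf alone among 25 endothelial genes had a ratio that did not overlap between strains. The ratio of counts of Vwf to Cdh5 was 1.09 to 1.70 in B6 and 0.957 to 1.05 in D2. Relative to Notch3, chosen in the same way, 2 of 8 mural genes did not overlap. Tagln to Notch3 was 0.200 to 0.334 in B6 and 0.143 to 0.187 in D2, and Acta2 to Notch3 was 0.210 to 0.328 in B6 and 0.191 to 0.209 in D2. The Acta2 ranges all but touched, with a B6 minimum of 0.2096 and a D2 maximum of 0.2092. Notch3 itself had a higher mean in D2, which lowers the ratios to it there. The share of all genes without overlap was not computed for either reference. Pdgfrb, Vtn and Higd1b overlapped on this scale.

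The endothelial genes varied together within strains. D2 replicate 5 was below the D2 mean in 26 of 26 endothelial genes and had the lowest D2 value in 20. Among mural genes it was below the mean in 7 of 9. B6 replicates 3 and 5 were above the B6 mean in 22 and 23 of 26 endothelial genes, and B6 replicate 1 was below it in 24. B6 replicates 3 and 5 are the mice with the high cortex neuron markers. Without both, the median log2 fold change of the endothelial genes was -0.02 and Vwf was the only one called. Pdgfrb, Vtn and Tagln still passed, at 0.035, 0.048 and 0.029 (edgeR adjusted p), and Higd1b did not, at 0.20, while 19.2% of all genes were called.

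**Figure D4:**
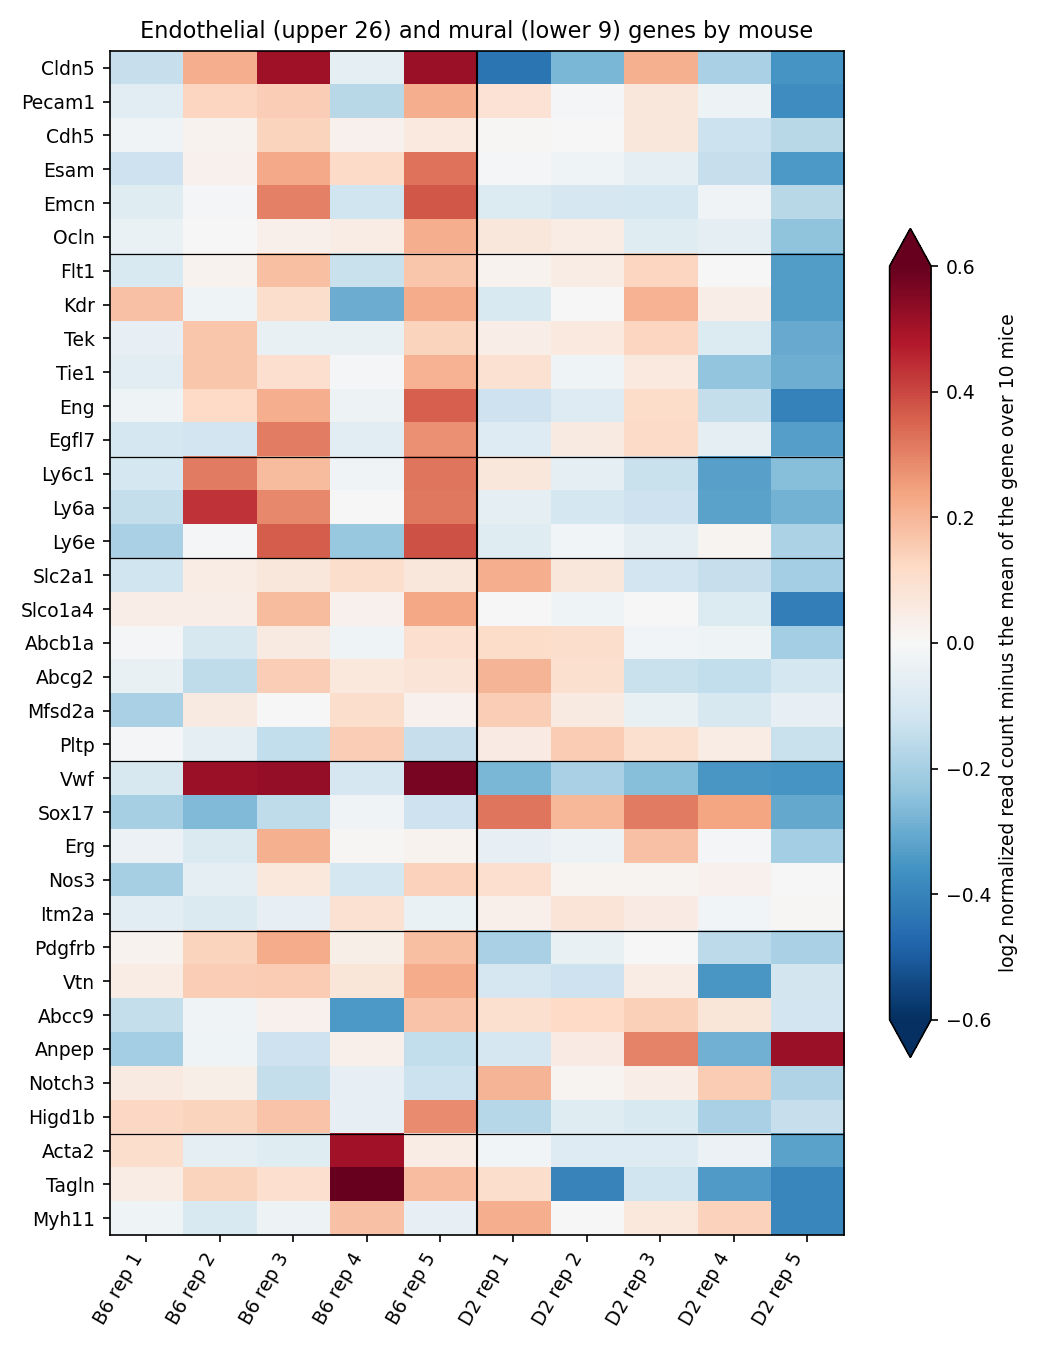
log2 normalized read count of each gene minus its mean over the 10 mice (red above, blue below), with a column for each mouse and lines between roles. B6 replicates 3 and 5 are red and D2 replicate 5 is blue over most endothelial genes, and B6 replicate 4 is reddest in the smooth muscle genes.

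Fibroblasts of the meninges and of vessel walls share some genes with mural cells. Of 16 fibroblast and meningeal markers, 5 were higher in D2 (Col3a1, Dcn, Islr, Lama1 and Col6a3) and 0 lower. Their summed counts were 45877 to 57150.4 in B6 and 46784 to 60188 in D2. The covariate was not this sum. Their level on a log2 scale, which served as the covariate, was 2.22 to 2.75 in B6 and 2.64 to 3.21 in D2. With their level as a covariate, the calls of Vwf (log2 fold change -0.44, edgeR adjusted p = 0.069), Pdgfrb (log2 fold change -0.17, edgeR adjusted p = 0.084), Vtn (log2 fold change -0.24, edgeR adjusted p = 0.058), Ly6a (log2 fold change -0.29, edgeR adjusted p = 0.15) and Higd1b (log2 fold change -0.21, edgeR adjusted p = 0.24) were lost. Tagln kept its call (log2 fold change -0.53, edgeR adjusted p = 0.047), and Sox17 (log2 fold change 0.45, edgeR adjusted p = 0.019) and Abcc9 (log2 fold change 0.28, edgeR adjusted p = 0.032) were then called higher in D2. This fit called 15.5% of all genes. The covariate was lowest in B6 replicates 3 and 5 and highest in D2 replicate 5. Whether the lost calls reflect the markers, the strain or these mice was not tested.

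**Figure D5:**
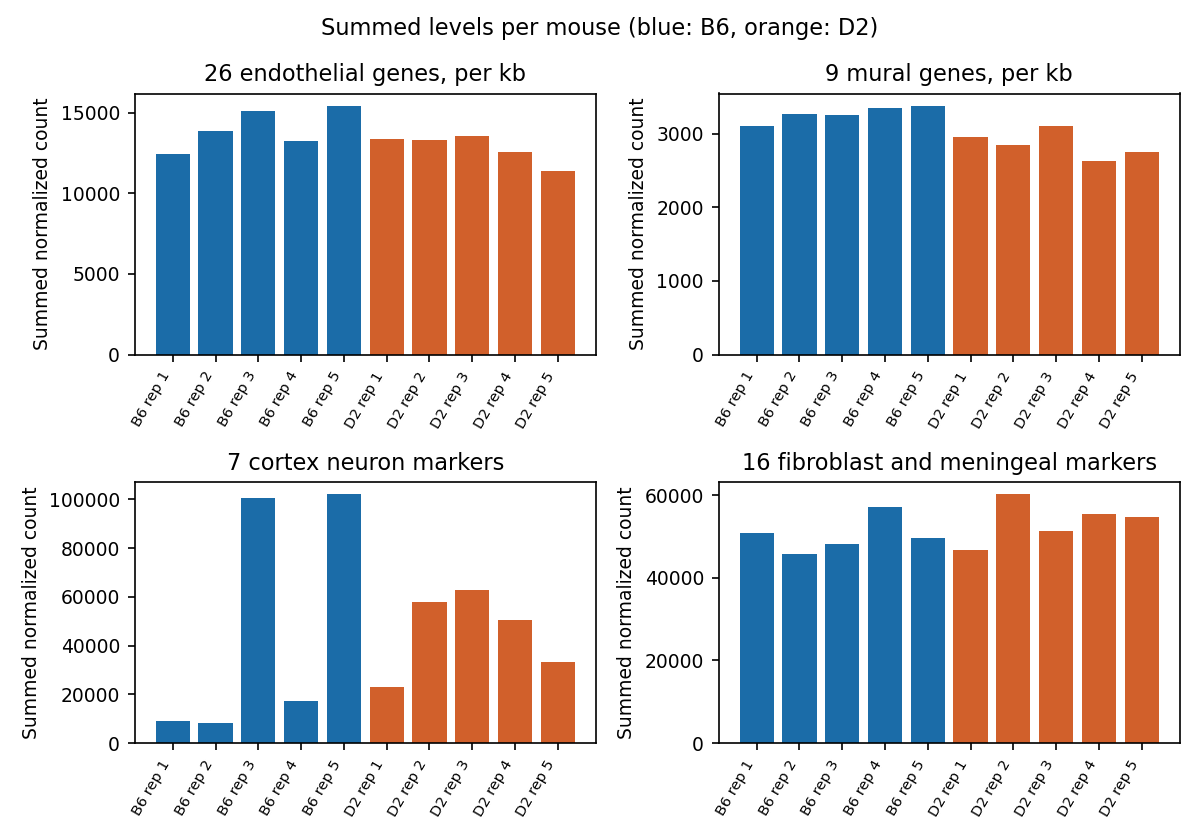
Summed normalized counts per mouse of the endothelial and mural genes (per kilobase) and of the cortex neuron and fibroblast and meningeal markers, with bars from 0 in blue for B6 and orange for D2. The cortex markers stand out in B6 replicates 3 and 5, and the mural sum is higher in every B6 mouse than in any D2 mouse.

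Markers of other cells in the tissue differed as well, and their counts stand beside 18.3% of all genes called in either direction. Of 8 oligodendrocyte markers 5 were lower in D2, with sums of 480426 to 686199 in B6 and 364898 to 528667 in D2. Without B6 replicates 3 and 5 the calls of Mobp, Mog and Mag were lost, the only 3 of these examined in that setting. The calls of the red blood cell marker Alas2 and of the macrophage marker F13a1 were lost there too. Of 8 striatal neuron markers 5 were lower, with sums of 390376 to 516811 and 330283 to 402477. Of 5 red blood cell markers 3 were lower, with sums of 7759 to 10750.2 and 4562 to 8416. These were the globin genes Hba-a2 (1034 ± 182 in B6 and 23.3 ± 5.33 in D2) and Hbb-bt (log2 fold change -1.27), and Alas2 (-0.59). Alas2 kept its call in 3 of 10 fits that left out 1 mouse. Of the 2 uncalled markers, 1 lay above 0. Reads of both strains were aligned to the B6 genome, and whether these values reflect the amount of blood was not tested. Astrocyte markers were mixed, with 1 of 8 higher and 3 lower. Microglia markers (1 of 8 higher, 1 lower) and macrophage and leukocyte markers (1 of 12 higher, 2 lower) were mixed also. Choroid plexus markers had 0 of 8 higher and 1 lower, and 0 of 6 ependymal and 0 of 7 cortex neuron markers were called. The part of these cells in the member differences was not tested.

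Beyond the members, 40 other endothelial genes gave 2 higher and 9 lower in D2. This is 27.5% called, beside 18.3% of all genes and 24.3% of genes within the members' range of mean counts. Whether this list or those below differ from genes at large was not tested. The largest difference was in Plvap, which forms the diaphragms of fenestrated vessels and is scarce in mature barrier vessels. Its counts were 806, 795, 711, 795 and 714 in B6 and 1704, 1670.3, 1761, 1699.6 and 1805 in D2, and every D2 mouse was far above every B6 mouse (log2 fold change 1.18, SE 0.054, edgeR adjusted p = 9.4e-09). Robo4, an endothelial guidance receptor, was lower in D2 (log2 fold change -0.51, SE 0.093, edgeR adjusted p = 0.0016), as was Pglyrp1 (log2 fold change -0.49, SE 0.13, edgeR adjusted p = 0.019). The call of Pglyrp1 was lost without B6 replicates 3 and 5 (edgeR adjusted p = 0.083) and with the fibroblast and meningeal markers as a covariate (0.15).

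Of 29 other mural genes, 1 was higher and 8 lower. The gene higher in D2 was Rgs5, a regulator of G protein signals in pericytes, at 9118 ± 627 in B6 and 10822 ± 802 in D2 (SD, n = 5 per strain, log2 fold change 0.25, SE 0.059, edgeR adjusted p = 0.0099). The muscle intermediate filament gene Des (log2 fold change -0.63, SE 0.10, edgeR adjusted p = 0.00042), the adhesion molecule gene Mcam (log2 fold change -0.58, SE 0.10, edgeR adjusted p = 0.0012) and Ggt1 (log2 fold change -0.55, SE 0.10, edgeR adjusted p = 0.0014) were lower, each with every B6 mouse above every D2 mouse. Of the called genes on this list, 8 were thus lower in D2 and Rgs5 was the exception.

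Of 13 arterial and venous markers 3 (23.1%) were lower and 0 higher. Ackr1, the chemokine receptor of venular endothelium, had counts of 2838, 2910.1, 3909.7, 3114 and 4017 in B6 and 1851, 2139, 2143, 1867 and 1866 in D2, without overlap (log2 fold change -0.77, SE 0.10, edgeR adjusted p = 0.00013). The adhesion molecule gene Vcam1 was also lower (log2 fold change -0.26, SE 0.058, edgeR adjusted p = 0.0071). The third, Lcn2, was high in 3 B6 mice and near 0 in the rest.

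Of 23 genes of VEGF, angiopoietin and TGF-beta signalling, 2 (8.70%) were lower and 0 higher, beside 18.3% of all genes called in either direction. Pdgfb, the ligand of Pdgfrb, was lower in D2 at 2090.1 ± 315 in B6 and 1630.1 ± 109 in D2 (SD, n = 5 per strain, log2 fold change -0.36, SE 0.092, edgeR adjusted p = 0.015). Without B6 replicates 3 and 5 its difference was smaller (log2 fold change -0.21, edgeR adjusted p = 0.046). With the fibroblast and meningeal markers as a covariate the call of Pdgfb was lost (edgeR adjusted p = 0.15), as was that of Pdgfrb. Vegfa was lower too (log2 fold change -0.17, SE 0.046, edgeR adjusted p = 0.022). Its call was lost without B6 replicates 3 and 5 (log2 fold change -0.10, edgeR adjusted p = 0.091), without D2 replicate 1 (0.057) and with the same covariate (0.17). Of 11 Notch genes, 2 (18.2%) were called. The nuclear effector Rbpj was lower (log2 fold change -0.99, SE 0.056, edgeR adjusted p = 6.6e-08) and Notch4 was higher (log2 fold change 0.31, SE 0.10, edgeR adjusted p = 0.041). The call of Notch4 was kept in 3 of 10 fits that left out 1 mouse, those without B6 replicate 4 or 5 or D2 replicate 5, and in the other 7 the edgeR adjusted p lay between 0.054 (without D2 replicate 4) and 0.098 (without D2 replicate 3). With RIN as a covariate it was 0.084. Of 17 Wnt and barrier induction genes, 2 (11.8%) were called. Foxf2, a pericyte transcription factor, was lower (log2 fold change -0.40, SE 0.10, edgeR adjusted p = 0.014) and the Wnt target Apcdd1 higher (log2 fold change 0.21, SE 0.040, edgeR adjusted p = 0.0027). The call of Foxf2 was lost without B6 replicates 3 and 5 (log2 fold change -0.34, edgeR adjusted p = 0.061) and with the fibroblast and meningeal markers as a covariate (-0.26 and 0.14).

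The vascular basement membrane, on which both cell layers sit, had 3 of 16 genes higher and 5 lower. Nid2 (log2 fold change -0.77, SE 0.073, edgeR adjusted p = 7.2e-06), Lama2 (log2 fold change -0.66, SE 0.10, edgeR adjusted p = 0.00045) and Lama5 (log2 fold change -0.54, SE 0.065, edgeR adjusted p = 6.0e-05) were lower in D2. Of the 10 other genes of the Ly6 cluster in the table, 1 was higher in D2, Ly6k, which had low counts, and the abundant Ly6h (0.034) and Lynx1 (0.015) were not called. Of 12 paralogs of the barrier transporters, Abcc1 was lower (log2 fold change -0.59, SE 0.040, edgeR adjusted p = 3.4e-07), while Abcb1b, Abcb4, Abcc4, Mfsd2b, Slc2a3, Slco1c1 and Slco2b1 were not called.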

How the data were processed

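Poly-A RNA of the NAc was sequenced in 10 mice, 5 of each strain, as 1 library each. Per the methods and labels, the authors used fastp for trimming, STAR 2.7.10b for alignment of both strains to the C57BL/6J genome (Ensembl GRCm39), SAMtools 1.6 for sorting and featureCounts for counting. The strand setting of the counting is not given in the sources used here. The deposited table holds raw read counts by gene, and the authors had dropped genes whose median was 0. The effect of aligning D2 reads to the B6 genome cannot be told apart from the strain.

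Counts of all 29883 genes were fitted with edgeR 4.0.16 under R 4.3.3 by its two-sided quasi-likelihood test after TMM scaling. Strain was the only factor, and p-values were adjusted over all genes by the Benjamini-Hochberg method. A gene was called at an adjusted p under 0.05. The SE follows from the size of the log2 fold change and the square root of the F statistic, as their quotient, and 95% intervals use the degrees of freedom of the fit. Single genes were also compared by a two-sided exact permutation test on log2(normalized count + 1) over 252 assignments of mice, with a smallest p of 0.0079. Levels per kilobase divide by the union of exons in the GENCODE annotation of GRCm39, which held 29519 of the 29883 genes. Reads of gene pairs were compared by exact matches of read-length stretches, and promoter motifs by exact search. Tests were tested on simulated data. Python 3.11.15 with numpy 2.4.6, pandas 2.3.3 and matplotlib 3.10.9 served for tables and plots.

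Full values are given by rule for called members, for the most abundant uncalled member of each role, and for at most 3 called genes of each other list with a mean of at least 100 counts. Slco1a4, Sox17, Myh11 and Rgs5 were added after their values were seen. The members and lists were chosen with earlier results of these data known. The alternatives were DESeq2 1.42.0, its size factors, upper-quartile and total-count scaling, filterByExpr, at least 10 counts in every mouse, RIN, cortex neuron or fibroblast and meningeal markers as a covariate, a block on the replicate number, an adjusted p under 0.01 and each mouse left out in turn. Leaving out B6 replicates 3 and 5 together was added after seeing the data.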

Additional observations from a re-analysis of the deposited data

Results flagged for a closer look

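Of 70 groups of 5 mice (35 genes in each strain), 11 held a mouse whose gap to the nearest other mouse took up most of the range of its strain. Chance gives such a mouse in about 1 in 20 groups, and the genes vary together within a mouse. D2 replicate 5 was the isolated mouse in 5 of the 11 and was the lowest each time. Its normalized counts were 1462 for Pecam1 (the other D2 mice 1855 to 2010.1), 4614 for Slco1a4 (5808 to 6177), 519 for Sox17 (737 to 805), 1032 for Abcc9 (1176 to 1234) and 465 for Acta2 (549.8 to 573). B6 replicate 4 was isolated in 4 and was the highest each time. Its counts were 5259 for Itm2a (the other B6 mice 4655 to 4802), 823 for Acta2 (551 to 625), 838 for Tagln (539 to 594) and 1061 for Myh11 (882 to 924), so it stood alone in all 3 smooth muscle genes. B6 replicate 1 was lowest for Slc2a1 at 7774 (8717 to 9078), and D2 replicate 1 was highest for Nos3 at 1216 (1135 to 1157).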

How the results depend on the processing

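Over 10 fits that left out 1 mouse and 11 other settings, 0 of the 6 called members and 12 of the 29 uncalled ones changed sign at least once, and 676 of the member values stayed on the same side of the threshold, 29 passed it newly and 30 no longer passed. At an adjusted p under 0.01, 3415 genes were called, with 1 endothelial and 1 mural member, and with 1 mouse left out 4636 to 5676 genes were called. The 2 endothelial calls became 5 with DESeq2 (Cldn5, Ly6c1 and Sox17 added), 5 with RIN as a covariate, 11 with the cortex markers as a covariate (10 lower, Sox17 higher), and 1 with the fibroblast and meningeal markers as a covariate or without B6 replicates 3 and 5. Over all genes, the main fit called 5478, DESeq2 6208 and the fit with RIN 5096. The fit with the cortex markers called 7779, so calls rose over the whole table there. The fit with the fibroblast and meningeal markers called 4646, and that without B6 replicates 3 and 5 called 5745. The endothelial calls ranged from 1 to 5 with 1 mouse left out (1 without B6 replicate 2, 3 or 5 or D2 replicate 4, and 4 or 5 without B6 replicate 1 or 4 or D2 replicate 3). The 4 mural calls became 2 with RIN or the fibroblast and meningeal markers as a covariate and 2 to 3 with 1 mouse left out. The endothelial median log2 fold change was 0.0093 with the fibroblast and meningeal markers as a covariate, a change of sign, and -0.13 to -0.04 with 1 mouse left out. The mural median was -0.24 to -0.11 with 1 mouse left out, smallest without B6 replicate 4. An exact permutation p under 0.05 was found in 11 of the 35 members, in 6 to 13 with 1 mouse left out and in 5 without B6 replicates 3 and 5. Over all genes the share with all mice was 28.0%, and the shares with mice left out were not computed. Leaving out a mouse also lowers the number of mice compared, so a lost call does not name that mouse as its cause. The cause of these changes was not tested. Higd1b lost its call with total counts as the scaling, by which 3012 genes were higher and 2468 lower in D2, in place of 2541 and 2937.

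The replicate numbers name different mice and do not pair them. Deviations of mice with the same number correlated at 0.37, -0.40, 0.36, 0.03 and -0.29 over 15388 genes, and 2 of 5 correlated best with their own number. With the replicate block, 4731 genes were called, and the mural calls became 2 (Pdgfrb and Vtn) and the endothelial calls 3 (Cldn5, Ly6a and Vwf). Counting error was not separated from the spread between mice, and it weighs most in members with low counts, such as Higd1b.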

Other observations

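Lcn2, an acute-phase gene listed among the venous markers, was near 0 in D2 and in 2 of the B6 mice. Its normalized counts were 2.89, 228, 394, 6.41 and 418 in B6 replicates 1 to 5 and 2.75, 1.95, 3.78, 3.76 and 8.16 in D2 replicates 1 to 5. B6 replicates 2, 3 and 5 were thus high and all other mice low (log2 fold change -5.65, SE 1.20, edgeR adjusted p = 0.0049), so the fitted difference rests on these mice, and the exact permutation p was 0.063. Vwf showed the same order among the B6 mice, with replicates 2, 3 and 5 all above replicates 1 and 4. This order, looked for after the Vwf values were seen and given with no test, held in 16 of the 35 members, 12 endothelial and 4 mural, and in 12.8% of all genes. Members with it included Cldn5, Ly6a, Ly6c1, Pdgfrb and Vtn. B6 replicate 2 had the lowest sum of cortex neuron markers of all mice, whereas replicates 3 and 5 had the highest sums.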
